A study of Mus musculus with 4 samples.

Results

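The Pax, Lhx, Nkx, Dlx, Tbx, Irx and sine oculis homeobox (such as Six3) genes encode developmental transcription factors outside the Hox clusters, and 68 genes on the array carried such a name, the family name followed by a digit. They were chosen by name alone, whether detected or not, from 31704 genes with values, and 62 of them encode transcription factors while 6 are antisense or other partner transcripts (Dlx1as, Dlx6as, Dlx6os1, Pax6os1, Six3os1 and Six6os1). RNA came from mouse erythrocyte/megakaryocyte progenitors (MEP), blood-forming cells whose offspring are red cells and the platelet-shedding megakaryocytes, on a C57BL/6 background. There were 4 samples with 1 array each, namely wild-type and Ezh2-null progenitors from E14.5 (embryonic day) fetal liver and wild-type and Ezh2-null progenitors from adult bone marrow. The labels do not give the age of the adults, the method of isolating the cells, the number of animals behind each sample, or the allele and deleted part of Ezh2. With no replicates, a difference between 2 arrays was described by its size alone and called at 2-fold (1 on the log2 scale).

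Ezh2 is the main histone methyltransferase of Polycomb repressive complex 2 (PRC2), which places trimethylation on lysine 27 of histone H3. In many tissues the promoters of such developmental regulators are CpG-rich, carry that mark and stay silent until a lineage calls on them. The families share DNA-binding folds: the paired domain in Pax, the homeodomain with a pair of LIM domains in Lhx, the homeodomain in Nkx, Dlx, Irx and the sine oculis genes, and the T-box in Tbx. Most members pattern the nervous system, heart, kidney, limb or gut, and few have a settled role in blood cells, among them Pax5 in B cells and Tbx21 in T and NK cells.

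A level here is the spot intensity scaled so that the 75th percentile of probes detected on all arrays was equal, in arbitrary units. "Detected" means flagged by the scanner software as well above background. The 4 values of a gene are always given in the order wild-type fetal liver, Ezh2-null fetal liver, wild-type bone marrow, Ezh2-null bone marrow. Where a gene was detected on 1 array of a pair, the difference is a lower bound, set by the lowest detected signal on the dim array, which was 19.3, 13.0, 11.1 and 9.98 in that order. Levels of different genes come from different probes and are not compared.

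The Ezh2 probe read 33.5, 194, 35.4 and 70.0, so that its signal was higher on both arrays labelled Ezh2-null. Whether the probe lies in the deleted part of the gene is not given in the sources used here, so it cannot check the genotype and each direction by genotype rests on the labels. Of 39429 probes, 39.0% to 46.4% were detected per array. Of 10 erythroid and megakaryocyte markers 8, 9, 8 and 9 were detected in the stated order. B lymphoid markers were the list that stood out on 1 array, with 2, 1, 1 and 6 of 8 detected and summed levels of 194, 56.4, 53.3 and 2586.

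Several readings turn on the probe sequence, and the probes concerned are shown first, 5′ to 3′, with coordinates on build mm9. Lhx6 was read by 3 probes, of which the only detected probe (chr2:35937644-35937703) ends in an AC repeat, in capitals in its last 30 bases below. An Lhx6 probe without such a repeat (chr2:35958379-35958438) is shown whole, as are both Pax5 probes (chr4:44658421-44658480, detected, and chr4:44550354-44582908, not detected, whose coordinates span more than its 60 bases). For Lhx2, whose level differed most between the sources among the members, the first 30 bases of its only probe are given (chr2:38224933-38224992).
Lhx6, repeat end: aACACACACACACACACACACACACACACA
Lhx6, other probe: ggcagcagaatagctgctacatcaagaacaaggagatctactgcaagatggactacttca
Pax5, detected: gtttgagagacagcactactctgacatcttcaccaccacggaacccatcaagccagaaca
Pax5, not detected: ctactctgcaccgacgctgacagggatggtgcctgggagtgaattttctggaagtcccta
Lhx2, first 30 bases: agagcttccgtattttcaaagactgccacg

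The members fell into an expressed and a silent part. By any probe, 33 of 68 genes (48.5%) were detected on 1 array or more, 19 (27.9%) on all 4, 14 on 1 to 3 arrays and 35 on none. Among all genes the corresponding shares were 55.9% on 1 array or more and 35.6% on all 4. In a list of 67 other developmental transcription factors, drawn up with earlier results of these data known, 23 (34.3%) were detected on 1 array or more. Per array, 25, 29, 22 and 28 members were detected in the stated order. With a looser flag of the scanner software (signal positive and significant against background), 56 members were detected on 1 array or more and 39 on all 4, so the silent part is defined only at the stricter threshold.

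Silent on all 4 arrays were 7 of 9 Dlx genes (Dlx1, Dlx1as, Dlx2, Dlx4, Dlx5, Dlx6 and Dlx6os1), which pattern forebrain, jaw and limb, and 4 of 6 Irx genes (Irx1, Irx2, Irx3 and Irx5), which pattern heart, limb and neural tissue. Of 8 Lhx genes, Lhx3, Lhx4, Lhx5 and Lhx8 were silent; Lhx3 and Lhx4 are known for pituitary and motor neuron development. Of 14 Nkx genes, Nkx2-1 (lung and thyroid), Nkx2-3 (spleen and gut), Nkx2-5 (heart) and Nkx2-9 were among the 5 silent ones. Of 10 Pax genes, Pax1, Pax3, Pax4, Pax6os1, Pax7 and Pax8 were silent, which include the neural crest and muscle regulators Pax3 and Pax7. Of 8 sine oculis genes only Six4 and Six6os1 were silent, and of 13 Tbx genes Tbx2, Tbx3, Tbx4, Tbx5, Tbx15, Tbx18 and Tbx19, among them the limb genes Tbx4 and Tbx5. The share detected on 1 array or more thus ran from 22.2% of Dlx and 33.3% of Irx genes through 40% of Pax, 46.2% of Tbx and 50% of Lhx genes to 64.3% of Nkx and 75% of sine oculis genes. Silence here means a signal not well above background, which does not exclude transcripts below that level.

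**Figure D1:**
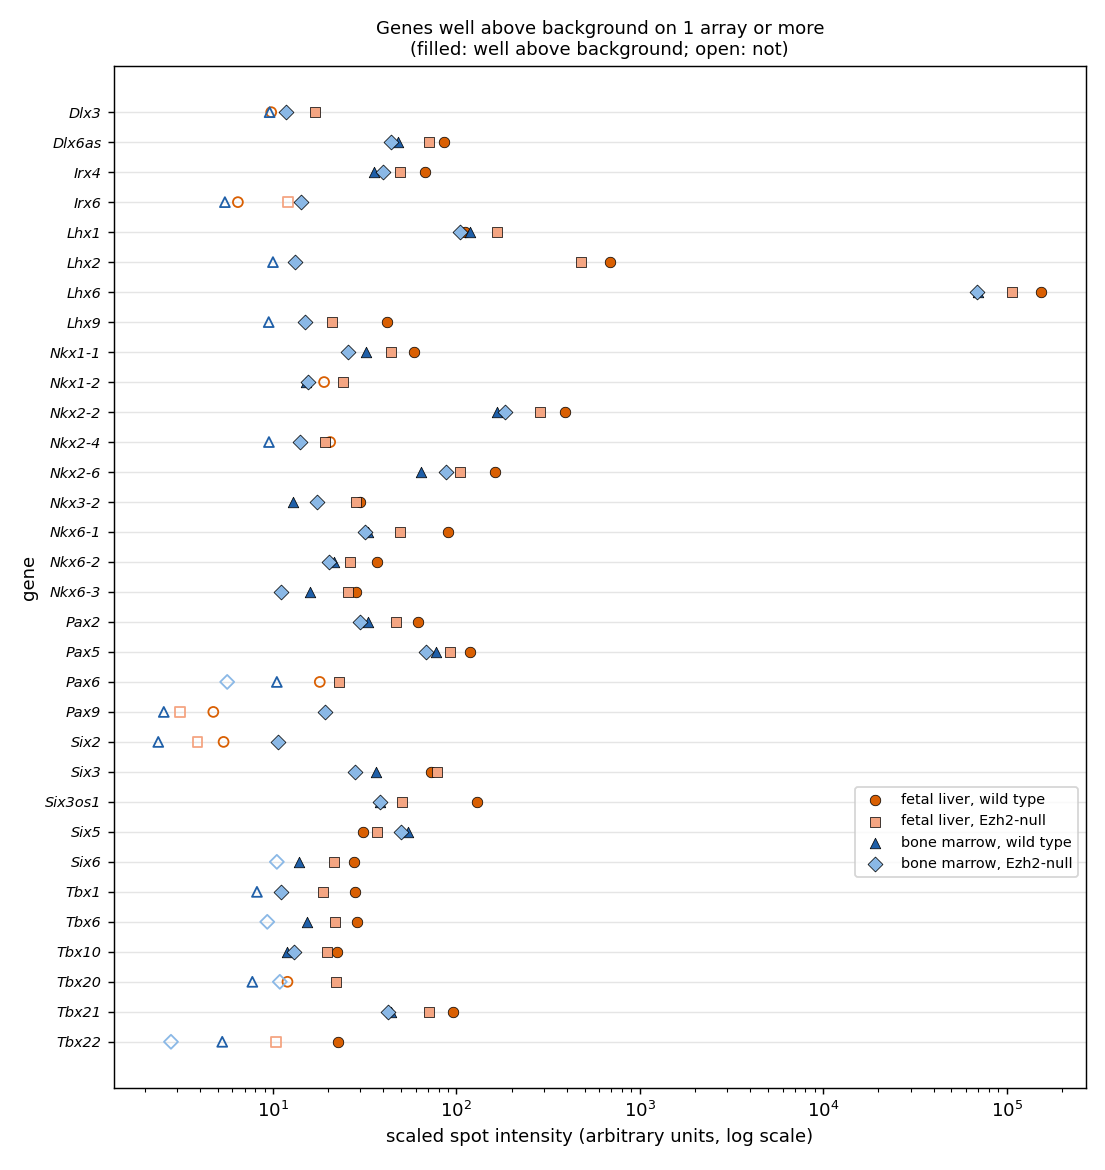
Scaled spot intensity (log axis) of 32 of the 33 genes detected on 1 array or more, with 1 symbol for each of the 4 arrays, filled where well above background and open where not. Lhx2 lies at 687 and 475 on the fetal liver arrays and at 10 and 13.2 on the bone marrow arrays, while the Lhx6 reading comes from a probe with an AC repeat.

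Among the LIM homeobox genes, Lhx2 had the widest range. Lhx2 is required for eye and forebrain, is known in liver from stellate cells, and its loss disturbs fetal liver blood formation in mouse embryos. Its levels were 687, 475, 10 and 13.2, and the wild-type bone marrow value was not above background. Both fetal liver arrays were therefore high and both bone marrow arrays at or near background, with no overlap between the sources. Lhx2 was at least 61.8-fold lower in wild-type bone marrow than in wild-type fetal liver (−5.95 log2) and 36.1-fold lower between the Ezh2-null arrays (−5.17). By genotype it differed by −0.53 log2 in fetal liver, and in bone marrow its difference was a bound of 0.24.

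The source difference of Lhx2 was at least 4-fold lower in bone marrow in every setting in which it was measured, with −6.38 to −3.53 log2 in wild type and −5.30 to −2.85 in Ezh2-null. Markers of other fetal liver cells were present on the same arrays. Of 7 stellate and mesenchymal markers 3, 3, 2 and 2 were detected, with summed levels of 175, 126, 71.4 and 69.9, and the stellate cell marker Des and the mesenchymal receptor gene Pdgfra were not above background on any array. The stellate cell gene Lrat was detected on the fetal liver arrays alone (24.6 on the wild-type one) and was at least 2.22-fold lower in wild-type bone marrow. The collagen gene Col1a2, at 93.5, 55.7, 40.1 and 32.5, was 2.33-fold lower there. Of 6 hepatocyte markers 2, 1, 0 and 2 were detected, with sums of 133, 57.4, 34 and 54.2, and neither Alb nor Afp was above background on any array. Apoa1 (65.5, 24.5, 11.4 and 11, the third not above background) was at least 5.75-fold lower in wild-type bone marrow, and Trf (38.7, 18.0, 9.9 and 31.0, detected on the first and last) at least 3.48-fold lower. Endothelial markers summed to 301, 181, 125 and 121, with Cdh5, Stab2 and Lyve1 below that threshold throughout. The endothelial receptor gene Kdr was detected on all arrays (210.4, 153, 104 and 97.2) and was 2.02-fold lower in wild-type bone marrow, while Tie1 was detected on the wild-type fetal liver array alone (50.2) and was at least 4.52-fold lower. Between the wild-type sources, 2 of 3 stellate and mesenchymal markers were at least 2-fold lower in bone marrow. So were 2 of 2 hepatocyte and 2 of 2 endothelial markers, beside 31.9% of all genes. With spike-in scaling these counts were 0, 1 and 0, beside 2.31% of all genes. In the scaling used here 1, 2 and 1 of the markers compared were bounds, detected on the fetal liver array of the pair alone. Such markers could only come out lower in bone marrow, and markers dim on both arrays were left out. The part of cells with such markers in the Lhx2 difference was not tested. In such bulk samples fewer cells of a type and less RNA per cell cannot be told apart.

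Lhx9, which acts in gonad formation, was read at 41.6, 21.0, 9.48 and 14.9 by 1 of its 3 probes. It was at least 3.74-fold lower in wild-type bone marrow than in wild-type fetal liver, and 1.41-fold lower between the Ezh2-null arrays. By genotype Lhx9 differed by −0.99 log2 in fetal liver, just under the 2-fold line. Its other probes were not above background on any array, and with all probes averaged the signal lay below the lowest one accepted as detected, so that the bound in wild type was 0.00 and the difference could not be measured.

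Lhx1, a regulator of head and kidney formation, was detected on all arrays at 112, 166, 118 and 105. The Ezh2-null fetal liver array was the high one, 1.48-fold above wild type (0.57 log2), and the other 3 lay close together. In bone marrow the genotypes differed by −0.17 log2, and the sources by 0.08 in wild type and −0.65 in Ezh2-null. The other Lhx1 probe was detected only on the Ezh2-null bone marrow array (15.5). With both probes averaged the fetal liver difference was −0.03. Lhx1 was then at least 2-fold higher on the Ezh2-null bone marrow array than on the wild-type one. It was also at least 2-fold lower in wild-type bone marrow than in wild-type fetal liver.

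Lhx6, known from cortical interneurons, read 154469, 106532, 69865 and 68541 by the probe that ends in the repeat. The stretch of alternating A and C was 29 bases long. On the whole array 75 other probes, for 75 genes, held at least 20 bases of an AC or TG repeat, and all 75 were detected on all 4 arrays, against 32.7% of all probes. Their median levels were 89258, 90625, 52997 and 48002, while probes detected on all arrays had medians of 124, 131, 115 and 111. The other Lhx6 probes read 12.4, 2.80, 3.91 and 3.77 and 4.07, 2.77, 2.32 and 2.29, none of them above background. Lhx6 is accordingly listed as detected by 1 repeat-bearing probe, and without such probes 32 members were detected on 1 array or more and 18 on all 4.

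**Figure D2:**
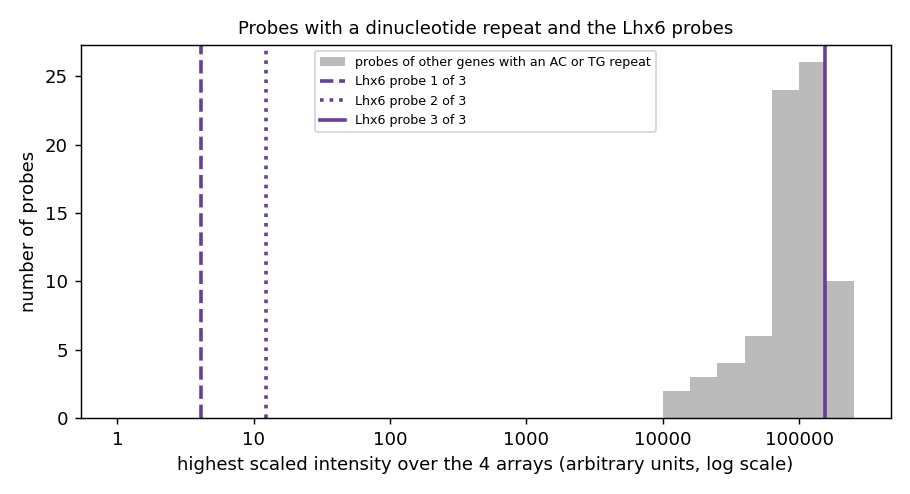
Highest scaled intensity over the 4 arrays (log axis) of the 75 probes of other genes with at least 20 bases of an AC or TG repeat, as a histogram of probe numbers, with the 3 Lhx6 probes as vertical lines. The Lhx6 probe at 154469 lies among the repeat probes, and the other Lhx6 probes lie at 12.4 and 4.07.

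LIM homeodomain proteins act with LIM-domain-binding partners. Of 9 partner genes, 7, 6, 6 and 6 were detected in the stated order. Between the wild-type sources 7 could be compared, of which 2 were at least 2-fold higher in bone marrow, Lmo2 (4.73-fold, an erythroid LIM-only cofactor) and Lmo4 (3.07-fold), and 1 was lower (Ldb2, at least 2.32-fold). Of all genes 13.1% were higher and 31.9% lower in that comparison. Between the Ezh2-null sources 2 of 6 were higher, beside 10.4% of all genes, Ldb1 (2.91-fold, the LIM-domain-binding adaptor of erythroid complexes) and Lmo2 (4.53-fold). No partner gene was at least 2-fold lower in bone marrow in both genotypes, as Lhx2 was.

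The Nkx family held most detected genes, 9 of 14, and 7 of them on all arrays. Nkx2-2, which specifies ventral neural tube and pancreatic endocrine cells, was at 392, 285, 166 and 184. Both fetal liver arrays lay above both bone marrow arrays, by 2.36-fold in wild type and 1.55-fold in Ezh2-null, and the genotypes differed by −0.46 log2 in fetal liver and 0.15 in bone marrow. Only 1 of the 2 Nkx2-2 probes was detected. Nkx2-6, a pharyngeal and heart regulator, was at 163, 104, 64.1 and 87.8, with differences of −0.65 and 0.45 log2 by genotype in fetal liver and bone marrow and of −1.34 and −0.24 by source in wild type and Ezh2-null.

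Nkx6-1, a regulator of insulin-producing cells and motor neurons, was at 90.5, 49.1, 33.0 and 31.6. By genotype it was 1.84-fold lower with the Ezh2-null label in fetal liver and 1.05-fold lower in bone marrow, and its source differences were −1.46 log2 in wild type and −0.64 in Ezh2-null. Its paralogue Nkx6-2, an oligodendrocyte gene, was at 37.1, 26.3, 21.6 and 20.3, with genotype differences of −0.50 and −0.09 and source differences of −0.78 and −0.38. Both genes were highest on the wild-type fetal liver array, and their bone marrow values lay close together. Nkx6-3, a stomach gene read by 1 of 2 probes, was at 28.5, 25.8, 16 and 11.0 and was 2.34-fold lower in Ezh2-null bone marrow than in Ezh2-null fetal liver (−1.23), with −0.83 between the wild-type sources, −0.14 by genotype in fetal liver and −0.54 in bone marrow.

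Nkx3-2, which acts in the skeleton and spleen, was at 29.8, 28.3, 12.9 and 17.4, with source differences of −1.21 log2 in wild type and −0.70 in Ezh2-null and genotype differences of −0.08 in fetal liver and 0.43 in bone marrow. Nkx1-1 was at 58.4, 44.2, 32.2 and 25.8 and differed by −0.40 and −0.32 by genotype and by −0.86 and −0.78 by source, and all 3 of its probes were detected on 1 array or more. Near the detection limit, Nkx1-2, known from tail bud progenitors, was at 19.0 (not above background), 24.1, 15.2 and 15.5. Nkx2-4 was detected on the Ezh2-null arrays alone, at 20.5 (not above background), 19.3, 9.51 (not above background) and 14.1, and its wild-type fetal liver signal was as high as its Ezh2-null signal.

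Among the Pax genes, Pax5 gives B cells their identity. Its levels were 118, 92.2, 77.6 and 67.9 by 1 of the 2 probes shown above, and the other probe read 12.3, 13.1, 10.4 and 7.93, never above background. The genotypes differed by −0.36 log2 in fetal liver and −0.19 in bone marrow, and the sources by −0.61 in wild type and −0.44 in Ezh2-null, so no Pax5 pair reached 2-fold. On the same arrays all 6 B lymphoid markers that could be compared in bone marrow were at least 2-fold higher on the Ezh2-null array, with a median of 2.75 log2. Of these 6 values 5 were bounds from markers detected on the Ezh2-null array of the pair alone, which could only come out higher. Ebf1 and Ms4a1 were not above background on any array. Pax5 was thus not higher on the array on which those markers were higher.

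Pax2, a kidney and ear regulator, was at 61.9, 47.1, 32.9 and 29.9, and all 3 of its probes were detected in fetal liver. Its differences were −0.39 and −0.13 log2 by genotype and −0.91 and −0.65 by source. Pax6, which directs eye and pancreas formation, was detected on the Ezh2-null fetal liver array alone (18.0, 23.0, 10.5 and 5.63) and by 1 of 2 probes. Pax9, a pharyngeal pouch and tooth gene, was detected on the Ezh2-null bone marrow array alone (4.73, 3.13, 2.54 and 19.1), at least 1.72-fold above wild type, and its other probe was not detected there (2.15).

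The sine oculis genes were detected most often. Six3, a forebrain and eye gene, was at 72.8, 78.4, 36.5 and 27.9, and it was 2.81-fold lower in Ezh2-null bone marrow than in Ezh2-null fetal liver. Between the wild-type sources it was lower by 2.0-fold after rounding, just under the line, and was not called. By genotype Six3 differed by 0.11 in fetal liver and −0.39 in bone marrow. Its other probe read 21.8, 13.5, 7.69 and 5.23 and was detected on the wild-type fetal liver array alone. By that probe the fetal liver signal was lower on the Ezh2-null array.

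Six3os1, transcribed opposite Six3, was at 129, 50.8, 38.4 and 38.3 by 1 of its 3 probes. The wild-type fetal liver array was the high one, and the other 3 values lay between 38.3 and 50.8. In fetal liver Six3os1 was 2.53-fold lower on the Ezh2-null array (−1.34 log2), with 0.00 in bone marrow, and the sources differed by −1.75 in wild type and −0.41 in Ezh2-null. The fetal liver difference was under 2-fold with spike-in scaling (−0.91), normexp (−0.94) and all probes averaged (−0.42). Six3 itself lay on both sides of 0 by genotype, as given above.

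Six5, which lies beside the myotonic dystrophy kinase gene, was at 31.1, 36.9, 54.6 and 50.1. It was the only member detected on all arrays with higher values in bone marrow in both genotypes, by 0.81 log2 in wild type and 0.44 in Ezh2-null, but this turned to −0.37 and −0.02 with normexp. By genotype it differed by 0.25 in fetal liver and −0.12 in bone marrow. Six6, an eye and pituitary gene, was at 27.6, 21.4, 13.9 and 10.5, the last not above background. Six2, the nephron progenitor gene, was detected on the Ezh2-null bone marrow array alone (5.38, 3.88, 2.37 and 10.6) and by 1 of 2 probes.

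The homeodomain proteins encoded by the sine oculis genes act with Eya and Dach proteins. Eya1 was read by a repeat-bearing probe and is left aside, and of the remaining 5 partner genes 1, 1, 2 and 2 were detected in the stated order. Eya2 differed most, at 11.7, 11.3, 16.5 and 246, so that it was 14.9-fold higher on the Ezh2-null bone marrow array than on the wild-type one, and it is named after its value was seen. The sine oculis genes detected on both bone marrow arrays differed by 0.39 log2 or less in size, while Six2 and Six6, each detected on 1 of these arrays, gave bounds that set no upper limit.

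Tbx21 encodes T-bet, the regulator of type 1 T cells and NK cells. It was at 96.0, 70.9, 43.8 and 42.4, with both fetal liver arrays above both bone marrow arrays, by 2.19-fold in wild type and 1.67-fold in Ezh2-null. Its genotype differences were −0.44 log2 in fetal liver and −0.05 in bone marrow. Of 9 T and NK markers 4, 4, 3 and 4 were detected, with sums of 181, 183, 119 and 128, and the NK receptor genes Ncr1 and Klrb1c were not above background on any array. The cytotoxic cell gene Prf1 (62.8, 74.3, 53.1 and 48.2) and the T-box gene Eomes (22.3, 16.6, 22.5 and 11) were detected on all arrays. The T cell receptor gene Cd3e (39.8, 42.6, 17.2 and 39.9) was 2.31-fold lower in wild-type bone marrow than in wild-type fetal liver, and Gzmb, detected on the fetal liver arrays alone (23.0 and 19.3), was at least 2.07-fold lower. The part of such cells in the Tbx21 signal was not tested.

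The other T-box genes lay near the detection limit. Tbx10 was detected on all arrays at 22.3, 19.6, 11.9 and 13.0, with genotype differences of −0.19 and 0.13 log2 and source differences of −0.91 and −0.60. Tbx1, a pharyngeal arch regulator, was at 28.0, 18.7, 8.18 (not above background) and 11.0, at least 2.52-fold lower in wild-type bone marrow than in wild-type fetal liver. Tbx6, which acts in presomitic mesoderm, was at 28.7, 21.8, 15.4 and 9.31, the last not above background. Tbx20, a heart gene, was detected on the Ezh2-null fetal liver array alone (12.0, 22.2, 7.72 and 10.9). Tbx22, a palate gene, was detected on the wild-type fetal liver array alone (22.6, 10.4, 5.29 and 2.78).

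Few Irx and Dlx genes were above background. Irx4, a gene of heart ventricles, was at 67.5, 49.4, 35.4 and 39.6, with genotype differences of −0.45 and 0.16 log2 and source differences of −0.93 and −0.32. Irx6 was detected on the Ezh2-null bone marrow array alone (6.44, 12.1, 5.47 and 14.3). Dlx3, a skin and placenta gene, was detected on the Ezh2-null arrays alone (9.78, 17.0, 9.59 and 11.8). The non-coding Dlx6as was on all arrays, at 85.4, 71.3, 48.1 and 43.9, with genotype differences of −0.26 and −0.13 and source differences of −0.83 and −0.70.

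The first comparison asked whether members differed between the labelled genotypes in fetal liver. Of 30 members that could be compared, 0 were at least 2-fold higher on the Ezh2-null array, beside 15.4% of all genes, and 1 was lower (Six3os1), beside 13.3%. In the scaling used here no gene encoding a factor of these families passed 2-fold, but 6 of the 30 values were bounds with no upper limit. With the percentile over all probes and with quantile normalization 3 of 30 were lower (Lhx9, Nkx6-1 and Six3os1). Of all genes 31.8% and 29.7% were then called in either direction. With the looser detection flag 4 of 50 members passed 2-fold (Lhx3 higher, Pax8, Six3os1 and Tbx22 lower), beside 32.6% of all genes. The members' median was −0.39 log2 and that of all genes −0.14. With spike-in scaling these medians were 0.04 and 0.21, so only the position below all genes, by 0.25 in the scaling used here and by 0.05 to 0.34 over 19 settings, kept its sign. These settings include the main one and the 1.5-fold and 4-fold thresholds, which cannot move a median. With spike-in scaling Lhx1 reached 1.0 and was the called member. Of all 68 members, 5 were detected on the Ezh2-null array alone (Dlx3, Nkx1-2, Nkx2-4, Pax6 and Tbx20), none above 24.1. On the wild-type array alone 1 of 68 was detected (Tbx22). Of all 31704 genes 9.52% and 2.44% showed these patterns.

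In bone marrow, 0 of 30 members were at least 2-fold higher on the Ezh2-null array and 0 lower, beside 4.54% and 7.64% of all genes. The members' median was 0.00 and that of all genes −0.04. The 20 members detected on both arrays lay between −0.54 and 0.45, and the other 10 values were bounds, which set a lower limit on the size of a difference and no upper one. Of all 68 members, 8 were detected on the Ezh2-null array alone (Dlx3, Irx6, Lhx2, Lhx9, Nkx2-4, Pax9, Six2 and Tbx1). On the wild-type array alone 2 of 68 were detected (Six6 and Tbx6). Of all 31704 genes 4.18% and 4.10% showed these patterns. The 8 genes lay at 19.1 or lower on the Ezh2-null array, close to its detection limit, which was also the lowest of the 4. Their bounds of 0.00 to 0.78 log2 therefore leave their differences unmeasured; Pax9, for example, was read at 2.54 and 19.1. With the looser detection flag 6 of 50 members passed 2-fold (Irx6, Pax9 and Six2 higher, Pax4, Pax6os1 and Tbx2 lower), beside 19.8% of all genes.

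The comparison of sources asked how adult bone marrow differed from fetal liver. In wild type, 0 of 26 members were at least 2-fold higher in bone marrow (13.1% of all genes) and 12 were lower (31.9% of all genes). Among the lower ones were Lhx2, Lhx6, Lhx9, Nkx2-2, Nkx2-6, Nkx3-2, Nkx6-1, Six3os1, Tbx1, Tbx21 and Tbx22. Between the Ezh2-null arrays 0 of 32 were higher (10.4% of all genes) and 7 lower (26.9% of all genes), namely Lhx2, Nkx6-3, Pax6, Six3, Six6, Tbx20 and Tbx6. The medians of members and all genes were −0.99 and −0.58 in wild type and −0.64 and −0.51 in Ezh2-null. Of the lower members, Lhx2, Lhx9, Tbx1 and Tbx22 in wild type were bounds, detected on the fetal liver array of the pair alone. So were Pax6, Six6, Tbx20 and Tbx6 in Ezh2-null, and such bounds could only come out lower. With detection required on all 4 arrays, 8 of 19 and 2 of 19 members passed 2-fold, all lower. Of all genes 43.3% and 32.8% then passed it in either direction.

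The direction of most source differences depended on the scaling. Scaled to 3 spike-in probes, the median of all genes was 0.66 in wild type and 0.35 in Ezh2-null, and that of the members 0.28 and 0.24. Then only Lhx2 was at least 2-fold lower in both genotypes (−4.68 and −4.29), while Lhx1 and Six5 were higher in wild type and Irx6, Pax9 and Six5 in Ezh2-null. In wild type the members' median lay below that of all genes in 19 of 19 settings, by 0.41 in the scaling used here and by 0.06 to 0.61 over the settings. In Ezh2-null this held in 17 of 19. The 19 settings are not separate checks. They include the main one, and the 1.5-fold and 4-fold thresholds cannot move a median. Keeping outlier spots, using the authors' series table and leaving out repeat probes hardly changed the wild-type gap. The comparisons share arrays (the wild-type fetal liver array enters both the genotype and the source comparison), so they are not independent of each other.

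**Figure D3:**
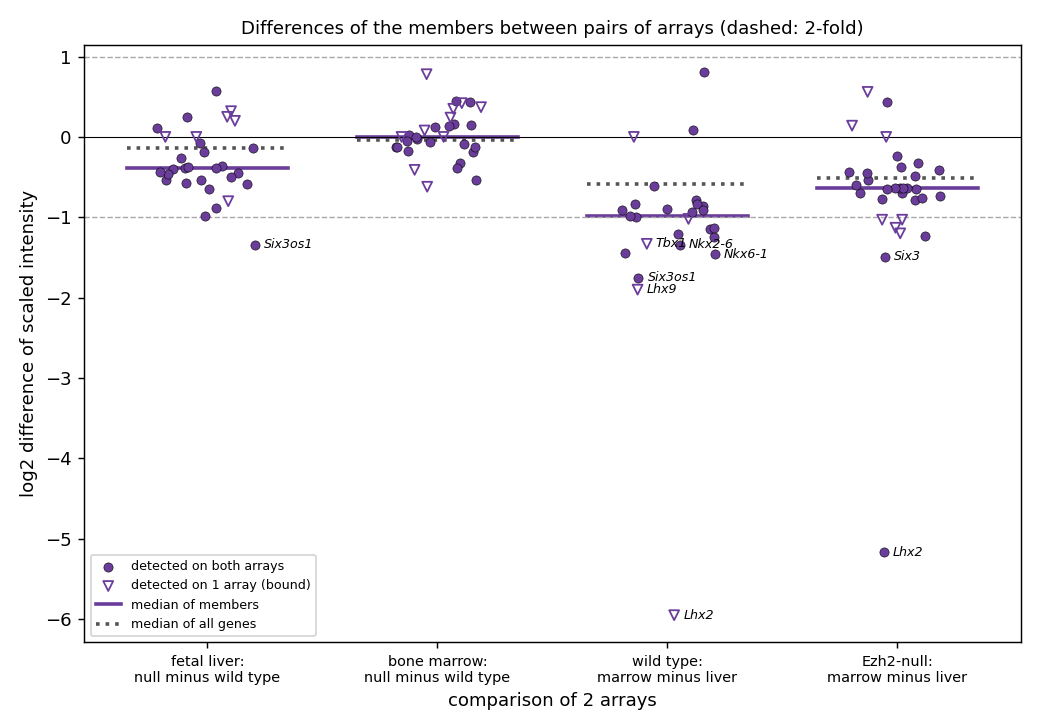
Log2 differences of the members in 4 pairs of arrays, with filled circles for genes detected on both arrays, open triangles for bounds, solid lines for the members' medians and dotted lines for the medians of all genes. Lhx2 lies apart at −5.95 and −5.17 in the source comparisons, and Six3os1 is the only member beyond 2-fold by genotype.

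A model over all 4 arrays with source and genotype as additive terms left 1 residual degree of freedom. With 1 array per group, that residual is the disagreement of the source difference between the genotypes. The SE and p-values therefore hold no spread between replicates. The model took both Lhx2 bone marrow signals as equal, at 19.3, because signals below that value were raised to it. It was fitted to 16250 genes, of which 0 (0%) passed an adjusted p of 0.05 for genotype and 0 (0%) for source by limma with Benjamini-Hochberg adjustment, while 278 and 2648 had an unadjusted p under 0.05. Of 29 members fitted, 0 for genotype and 2 for source had an unadjusted p under 0.05. These were Lhx2 (−4.89 ± 0.42 log2 (SE), limma adjusted p = 0.115, lower in bone marrow in both genotypes) and Six3 (−1.24 ± 0.42, limma adjusted p = 0.293). Lhx2 passed the adjusted threshold with 5 other settings, which called 234 to 1398 genes for source, and no member passed it for genotype in any, where 0 to 140 genes did.

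Detection followed the base composition of the probes. Member probes detected on all 4 arrays had a median of 55% G and C, and those detected on none 38.3%, while the corresponding medians over all probes were 45% and 40%. With up to 35% G and C, 3 of 23 member probes (13.0%) were detected on 1 array or more, beside 39.2% of all probes. From 40 to 45% it was 13 of 25 (52.0%) beside 55.8%, and from 55 to 60% 13 of 17 (76.5%) beside 83.8%. The source difference in wild type also fell with it, from a median of 0.05 log2 over probes of up to 35% to −0.89 from 55 to 60%, and the genotype difference in fetal liver from 0.09 to −0.43. With that trend removed, 13 of 26 members were lower in wild-type bone marrow and 1 (Six5) higher, and their median lay 0.39 below that of all genes, beside 0.41 with the trend left in. The gap in the fetal liver genotype comparison went from 0.25 to 0.11 below, and that between the Ezh2-null sources from 0.13 to 0.04 below.

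**Figure D4:**
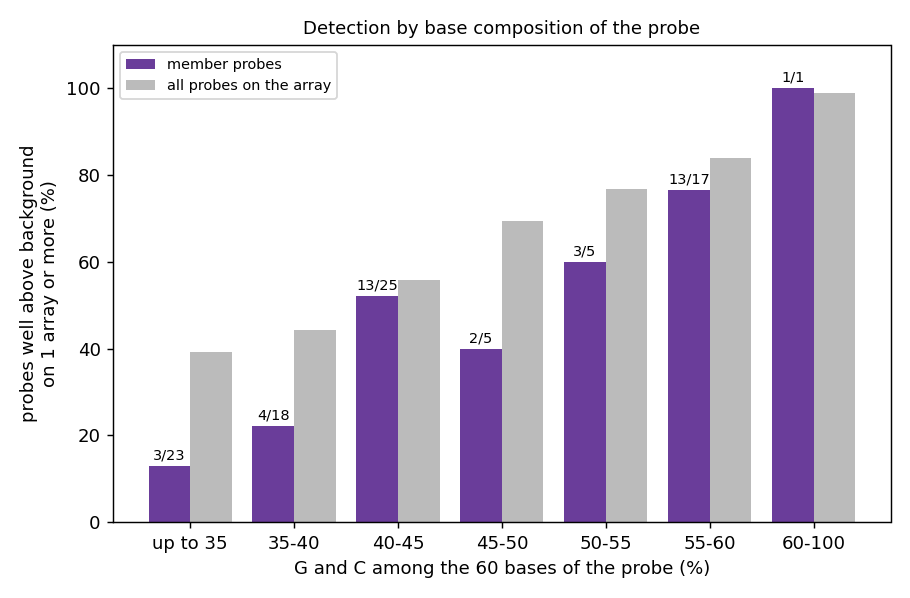
Share of probes detected on 1 array or more (bars from 0, in percent) by the share of G and C in the probe, for the 94 member probes and for all 39429 probes, with member counts above the bars. Detection rises from 13.0% to 76.5% of member probes between the lowest band and 55 to 60%, and from 39.2% to 83.8% of all probes.

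Probes of 1 gene often disagreed. Of 19 members with several probes, 4 had all of them detected on 1 array or more, 2 none and 13 some but not all. So 13 of the 33 detected genes rest on a reading that another probe of the gene shares on no array. These are Lhx6, Lhx9, Nkx1-2, Nkx2-2, Nkx6-3, Pax5, Pax6, Pax9, Six2, Six3os1, Tbx6, Tbx20 and Tbx22. In the 4 others (Lhx1, Nkx1-1, Pax2 and Six3) a probe was also not detected on every array. Lhx2 had a single probe and offers no such check.

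Promoters of developmental regulators are known for their CpG content, and RefSeq promoter sequences (assembly GRCm38.p6, 250 bases before to 50 after a start) matched 47 of the 68 members. The motif searched was CG, which reads the same on both strands, and a promoter was called CpG-rich at 50% G and C or more and at least 0.6 of the CG count expected from its base composition. Of the members 66.0% had a CpG-rich promoter, beside 36.0% of all genes in the table and 79.5% of 39 matched genes among the other developmental transcription factors. Among members detected on all 4 arrays it was 13 of 15, among those detected on 1 to 3 arrays 8 of 12, and among the silent ones 10 of 20. The LIM genes with lower bone marrow levels show both kinds: a promoter of Lhx2 (chr2:38339031-38339330, plus strand) held 34 CG, and that of Lhx9 (chr1:138842395-138842694, minus strand) held 6, in capitals here.
Lhx2 promoter: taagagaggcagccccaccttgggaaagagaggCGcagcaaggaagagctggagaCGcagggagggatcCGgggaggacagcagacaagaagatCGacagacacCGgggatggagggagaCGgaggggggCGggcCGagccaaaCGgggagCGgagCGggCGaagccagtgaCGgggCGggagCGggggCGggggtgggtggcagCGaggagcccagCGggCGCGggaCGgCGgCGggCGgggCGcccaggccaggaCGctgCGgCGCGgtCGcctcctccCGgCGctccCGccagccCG
Lhx9 promoter: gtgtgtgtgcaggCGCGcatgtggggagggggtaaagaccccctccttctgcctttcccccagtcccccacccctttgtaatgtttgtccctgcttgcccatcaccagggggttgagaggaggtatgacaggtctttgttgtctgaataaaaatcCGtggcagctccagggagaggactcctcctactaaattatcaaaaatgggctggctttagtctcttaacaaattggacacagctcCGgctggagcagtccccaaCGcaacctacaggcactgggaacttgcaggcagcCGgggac

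Genes whose products act with these factors or on their chromatin were read from lists drawn up with earlier results of these data known. All 11 PRC2 component genes were detected on 1 array or more, and in fetal liver 5 of 11 were at least 2-fold higher on the Ezh2-null array (Ezh1, Ezh2, Eed, Rbbp7 and Mtf2) and 1 lower (Aebp2), while in bone marrow 0 of 8 were higher and 1 lower (Mtf2). Of all genes 15.4% were higher and 13.3% lower in fetal liver, and 4.54% and 7.64% in bone marrow. Of 11 Groucho and other corepressor genes, which many homeodomain factors recruit, 3 were higher and 1 lower in fetal liver, and 1 of 8 was higher and 1 lower in bone marrow. Among the other developmental transcription factors 0 of 23 were higher and 1 lower by genotype in fetal liver, with a median of −0.48 log2, and 0 of 14 higher and 1 lower in bone marrow, with a median of 0.04. Between the wild-type sources 0 of 18 of them were higher and 14 lower in bone marrow (median −1.09), beside 13.1% and 31.9% of all genes with a median of −0.58. Of those 18 values 6 were bounds from genes detected on the fetal liver array of the pair alone, which could only come out lower. Between the Ezh2-null sources 0 of 21 were higher and 2 lower (median −0.61), beside 10.4% and 26.9% with a median of −0.51. With spike-in scaling 1 of 18 was higher and 0 lower in wild type (median 0.00), where the median of all genes was 0.66, so the 14 lower calls depended on the scaling. In Ezh2-null 1 of 21 was then higher and 0 lower (median 0.00), where the median of all genes was 0.35.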

How the data were processed

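Each deposited file holds the spot intensity of a 1-colour Agilent array, written by Feature Extraction 10.7.3.1, background-subtracted and detrended within each array, per the file headers. RNA (250 ng) had been amplified and Cy3-labelled with spike-in RNA, per the labels' protocols. Control spots and outlier spots were left out, spots of 1 probe averaged, and log2 intensities scaled to the 75th percentile over the 12880 probes detected on every array (well above background). The probe with the highest mean stood for a gene; names came from the files, and other genes' names were updated through RefSeq. Pairs of arrays have no replicate check. Among repeatedly printed probes, spots of 1 array had a median log2 SD of 0.0751 to 0.143, an error within arrays only. The additive fit used limma 3.58.1 (R 4.3.3), two-sided, with signals below 19.3 raised to that value. It was also run on simulated data with additive effects alone and no raised signals. Such data cannot check the fit where the sources disagree by genotype or where values were raised. Members and lists were chosen with earlier results of these data known. Detected members are named with their values and silent ones by name, except for a few that enter the counts and are not reported here. Alternatives covered scaling, background, detection, probe choice, thresholds and, added after seeing the data, probe composition, probe position and repeat probes. Feature Extraction's flags were used as deposited. The authors' series table, tried in place of the scanner output, held the same deposited intensity values, off by at most 0.496%.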

Additional observations from a re-analysis of the deposited data

How the results depend on the processing

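Counts of members at least 2-fold apart are given in the order fetal liver by genotype, bone marrow by genotype, wild type by source and Ezh2-null by source, and were 1, 0, 12 and 7. They were 3, 0, 6 and 3 with the percentile over all probes, 2, 0, 11 and 2 with the median, 3, 0, 8 and 3 with quantile normalization, 1, 0, 3 and 4 with spike-in scaling and 0, 0, 17 and 1 with normexp. They were 4, 6, 22 and 21 with the looser detection flag, 1, 0, 8 and 2 with detection on all 4 arrays, 4, 6, 23 and 21 with no background filter, 1, 1, 12 and 4 with all probes averaged and 1, 0, 7 and 2 with a pseudocount of 16. The 1.5-fold threshold gave 5, 2, 24 and 20, and the 4-fold threshold 0, 0, 1 and 1. With the trend on probe GC removed they were 4, 0, 14 and 7, and without the trend on probe position 3, 0, 18 and 6, both chosen after seeing the data. The cause of these shifts was not tested. With the looser flag 56 members were detected on 1 array or more and 39 on all 4. The additive fit for source called 1 member (Lhx2) with the percentile over all probes, the median, quantile normalization and normexp, and 3 (Irx2, Lhx2 and Pax6os1) with no filter. Spike-in scaling turned 4 called source differences in wild type, Lhx6 to 0.13, Nkx2-2 to 0.03, Nkx3-2 to 0.06 and Tbx21 to 0.14. Over all genes, 53.6%, 37.3%, 29.1% and 27.8% of the calls were higher in the same order, against 81.6%, 40.6%, 94.3% and 74.4% with spike-in scaling and 41.9%, 46.1%, 55.1% and 64.2% with the percentile over all probes. Leaving out an array was not possible with 1 array per group. No paired analysis was possible because the groups share a single replicate number. Signal over background limits the readings of the 14 members detected on 1 to 3 arrays.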

Other observations

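Some probes carry an older name in the files that RefSeq pairs with these families, and they lay outside the name rule. A probe named A730090H04Rik, listed by RefSeq as Dlx4os, was detected on all 4 arrays at 27.2, 26, 14.1 and 14.6, in the order wild-type fetal liver, Ezh2-null fetal liver, wild-type bone marrow, Ezh2-null bone marrow, while Dlx4 itself was silent. A probe named A330062J17Rik, which RefSeq pairs with Lhx4, was detected on the Ezh2-null arrays alone, at 19.0 and 11.5, while the probe named Lhx4 was silent. Lhx1os, opposite Lhx1, was detected on the Ezh2-null fetal liver array alone (22.9, 20.5, 13.4 and 6.76), where its signal was below that on the wild-type array. Tbx3os1 was not detected on any array.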
